A study of Mus musculus with 4 samples.

Results

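The nuclear genes of the respiratory chain encode most subunits of the 4 electron-carrying complexes of the inner mitochondrial membrane and of ATP synthase (complex V). They were chosen by symbol: a gene was a member where the accession of a probe mapped to a symbol starting with Nduf, Sdh, Uqcr, Cox4 to Cox8 or Atp5 and following the numbering of subunits. The pattern matched 93 symbols. Of these, 79 had a probe, with 98 probes in all, out of 16995 genes with a symbol on the array. The 14 without a probe were 11 pseudogenes, Cox6c2, Ndufa11 and Ndufb1. The pattern uses no measured value, though it was chosen with earlier results of these data known. Complexes were assigned by the prefix of the symbol alone, so that Ndufa4, for one, counts in complex I by its name. On that basis the members are 35 genes of complex I, 4 of complex II, 8 of complex III, 15 of complex IV and 17 of complex V.

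The study profiled total RNA of the lung, esophagus, stomach and intestine primordia of ICR mouse embryos at E11.5, embryonic stages being counted in days from the mating plug, on 1 one-colour Agilent array per organ. All 4 groups share strain and stage and no treatment or allele is named. The labels do not say how many embryos or litters went into an RNA sample, the tissue label of the stomach sample is misspelt, and the extraction text speaks of stomach for every sample. With 1 array per organ there are no replicates, so no test was possible, no p-value is given, and every difference below is between these 4 arrays.

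Complex I takes electrons from NADH and complex II takes them from succinate. Complex III passes them to cytochrome c, complex IV (cytochrome c oxidase) passes them to oxygen, and ATP synthase uses the resulting proton gradient to make ATP. Several small subunits of complex IV exist in a form found in most tissues and a form found in striated muscle, encoded by separate genes. In most cells the common genes are transcribed at high levels, and their promoters are known targets of the activators NRF-1 and GABP (NRF-2).

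Levels are on a log2 scale with the 75th percentile of all probes of the array as 0, so that a level of 1 is a signal 2-fold above that percentile. Array brightness differed: the 75th percentile was 32.0 on the lung array, 379 on the esophagus array, 320 on the stomach array and 991 on the intestine array. The share of spots well above background was 39.0% on the lung array and 67.9% to 74.0% on the other 3. The lowest level well above background was −2.39 on the lung array, against −5.75, −5.78 and −6.92 on the esophagus, stomach and intestine arrays. Probes printed in 10 copies had a median SD of 0.072 to 0.105 log2 by array, which measures spots on 1 array and not embryos. Organ marker genes had their highest level in the labelled organ: Nkx2-1, a lung and thyroid regulator, was highest in lung at 2.47, Barx1, a stomach mesenchyme regulator, in stomach at 4.49, and Cdx2, an intestine regulator, in intestine at 1.90. Trp63, a regulator of squamous epithelium, was highest in esophagus at 0.31. The lung markers Nkx2-1 and Sftpc were also well above background on the esophagus array, at −1.10 and −1.75, and not on the stomach or intestine arrays.

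The members were among the brightest genes on every array. The median member level was 5.35 in the lung, 5.18 in the esophagus, 5.43 in the stomach and 5.25 in the intestine, against −1.15, −1.06, −1.06 and −1.03 for all genes. Of the 79 members, 75 (94.9%) were well above background on all 4 arrays, against 9497 of 16995 genes (55.9%). The 4 others were Cox6a2, Cox8b, Cox7b2 and Cox8c, all tissue-restricted forms of complex IV subunits. These levels say how much labelled RNA bound each probe in a mixed tissue, where fewer cells of a type and less RNA per cell cannot be told apart.

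**Figure D1:**
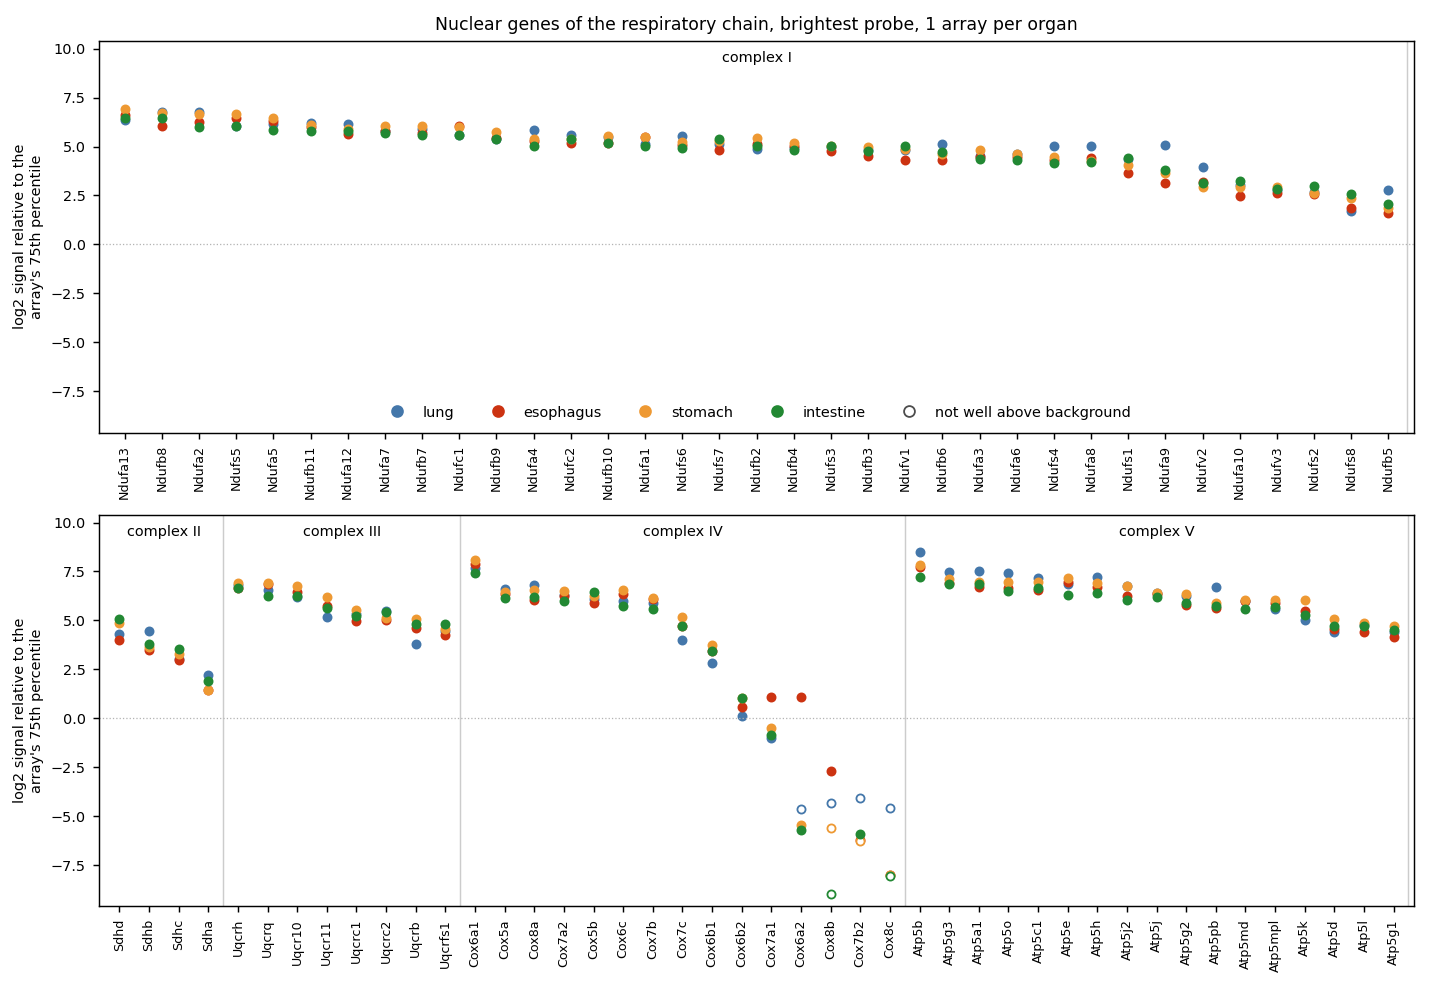
Each column is 1 of the 79 members, grouped by complex and ordered by mean level; points are the 4 arrays, the y axis is log2 signal relative to the array's 75th percentile, and open points were not well above background. Most members lie between 2 and 8 on all 4 arrays, while Cox6a2, Cox7a1 and Cox8b have their highest point in esophagus.

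The muscle forms of complex IV were set apart by the esophagus array. Cox6a2, the heart and skeletal muscle form of subunit 6a, had a level of −4.62 in lung, where it was not well above background, 1.10 in esophagus, −5.46 in stomach and −5.71 in intestine. Its processed signals were 1.30, 811, 7.30 and 19.0 in that order. Only the esophagus signal was far above the floor of its array. The esophagus level was at least 11.2-fold above lung, a bound set by the floor of the lung array, and 93.9-fold above stomach and 112-fold above intestine. After normexp the margin over the next organ was 1.80 log2, against 3.49 log2 for that bound. Such bounds compare the brighter array with the lowest signal well above background on the dim array.

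Cox7a1, the muscle form of subunit 7a, was well above background on all 4 arrays. Its level was −0.99 in the lung, 1.11 in the esophagus, −0.49 in the stomach and −0.86 in the intestine. Esophagus was 4.27-fold above lung, 3.02-fold above stomach and 3.92-fold above intestine. Cox8b, the muscle form of subunit 8, was well above background in esophagus alone, at −2.70, and read −4.31 in lung, −5.61 in stomach and −8.98 in intestine. That put esophagus at least 7.54-fold above stomach and at least 18.7-fold above intestine, while no fold against lung could be given because the floor of the lung array lies above the esophagus level.

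Cox6a2 and Cox7a1 were the only members at least 2-fold above each of the other organs in esophagus, which was so for 1.12% of the 14507 genes detected on 1 array or more. Both passed that size under all 8 alternative settings of the processing, except that Cox6a2 drops out where only genes well above background on all 4 arrays are kept.

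The common counterparts had no such peak. Cox6a1 had levels of 7.69, 7.86, 8.09 and 7.42 in lung, esophagus, stomach and intestine, Cox7a2 had 6.28, 6.23, 6.51 and 5.98, and Cox8a had 6.79, 6.02, 6.56 and 6.18. Esophagus was the highest organ for none of them and the lowest for Cox8a. The farthest that esophagus lay from another organ was 1.36-fold for Cox6a1 (above intestine), 1.21-fold for Cox7a2 (below stomach) and 1.70-fold for Cox8a (below lung). A second probe for Cox7a2 read 6.27, 5.94, 6.04 and 5.51 in the same organ order.

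**Figure D2:**
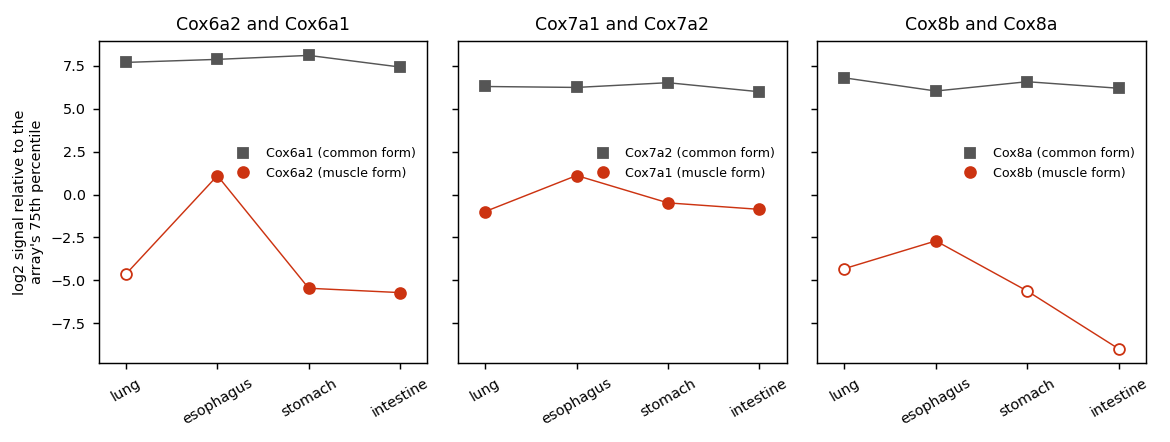
Levels (log2 signal relative to the array's 75th percentile, y axis) of the muscle form (red circles) and the common form (grey squares) of 3 complex IV subunits on the 4 arrays, with open points not well above background. Each red line peaks in esophagus, at 1.10 for Cox6a2, 1.11 for Cox7a1 and −2.70 for Cox8b, where the lung point of Cox8b is below a floor of −2.39 and sets no order; the grey lines have no such peak, and the height of a line is not comparable between genes.

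Most muscle marker genes had the same peak. Of 16 heart muscle markers, 6 were well above background in the lung, 15 in the esophagus, 12 in the stomach and 14 in the intestine, and the highest value was on the esophagus array for 15 of the 16. Their summed signal, in multiples of the array's 75th percentile, was 10.8 in the lung, 142 in the esophagus, 4.10 in the stomach and 4.84 in the intestine. Mybpc3, the myosin-binding protein of heart muscle, stood at −2.60 in lung, not well above background, and at 3.24, −3.92 and −4.32 in esophagus, stomach and intestine. Of the 10 skeletal muscle markers with a probe, 1, 7, 6 and 7 were well above background in the order lung, esophagus, stomach and intestine. Their sums were 1.03, 6.39, 0.618 and 0.806 in that order. The highest value was on the esophagus array for 6 of the 10 and on the lung array for 4. Those 4 were not well above background in lung, where the floor is −2.39, so their order is not known. The sums also hold values not well above background. Myf5 and Ckm were not well above background on any array. The 5 smooth muscle markers were well above background on every array, with sums of 37.5, 121, 58.4 and 50.7. The part of these cells in the isoform levels was not tested.

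The promoter windows of the 2 muscle forms and the 3 common forms with an entry are shown because the 2 kinds of gene differed across the organs; Cox6a2 has no entry. Each window holds 300 bases around the start of the gene, most of them before it, 5′ to 3′ on the strand of the gene, from RefSeq on GRCm38.p6. The windows are chr7:30183921-30184220 on the plus strand for Cox7a1 and, on the minus strand, chr7:140900397-140900696 for Cox8b, chr5:115348909-115349208 for Cox6a1, chr9:79759804-79760103 for Cox7a2 and chr19:7217567-7217866 for Cox8a. Capitals mark matches, on either strand, to the E-box CAGCTG bound by muscle regulators, to the NRF-1 motif (GCGC, any base, then TGCGC) or to the GABP motif CCGGAAG.
Cox7a1: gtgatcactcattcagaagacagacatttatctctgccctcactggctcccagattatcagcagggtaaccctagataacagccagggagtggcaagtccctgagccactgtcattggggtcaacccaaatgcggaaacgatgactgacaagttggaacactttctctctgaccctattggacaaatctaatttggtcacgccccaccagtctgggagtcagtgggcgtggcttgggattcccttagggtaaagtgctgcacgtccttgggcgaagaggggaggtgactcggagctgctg
Cox8b: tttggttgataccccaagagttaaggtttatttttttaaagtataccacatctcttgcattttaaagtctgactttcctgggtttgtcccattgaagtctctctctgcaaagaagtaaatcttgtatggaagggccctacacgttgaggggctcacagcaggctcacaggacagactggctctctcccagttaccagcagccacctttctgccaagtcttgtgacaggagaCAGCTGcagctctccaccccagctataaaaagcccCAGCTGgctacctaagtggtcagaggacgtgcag
Cox6a1: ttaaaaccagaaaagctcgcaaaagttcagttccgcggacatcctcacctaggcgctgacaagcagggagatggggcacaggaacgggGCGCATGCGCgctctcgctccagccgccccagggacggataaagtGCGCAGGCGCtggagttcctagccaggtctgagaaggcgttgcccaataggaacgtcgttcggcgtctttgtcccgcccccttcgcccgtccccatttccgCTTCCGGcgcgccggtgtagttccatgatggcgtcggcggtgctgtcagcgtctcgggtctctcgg
Cox7a2: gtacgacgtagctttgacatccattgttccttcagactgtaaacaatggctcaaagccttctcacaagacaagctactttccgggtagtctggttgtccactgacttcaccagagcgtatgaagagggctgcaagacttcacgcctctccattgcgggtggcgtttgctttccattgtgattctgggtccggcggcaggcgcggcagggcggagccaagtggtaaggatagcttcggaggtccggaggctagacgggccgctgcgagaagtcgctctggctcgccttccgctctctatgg
Cox8a: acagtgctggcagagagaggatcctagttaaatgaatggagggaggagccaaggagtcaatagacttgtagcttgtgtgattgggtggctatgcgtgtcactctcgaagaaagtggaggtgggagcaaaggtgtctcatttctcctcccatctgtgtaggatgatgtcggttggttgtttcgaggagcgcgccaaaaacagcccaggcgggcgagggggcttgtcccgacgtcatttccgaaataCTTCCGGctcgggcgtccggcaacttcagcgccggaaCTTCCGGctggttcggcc
The Cox8b window holds 2 E-boxes, the Cox6a1 window 2 NRF-1 matches and 1 GABP match, and the Cox8a window 2 GABP matches. Neither Cox7a1 nor Cox7a2 holds any of these letters. The muscle windows hold 7 CpG dinucleotides in Cox7a1 and 2 in Cox8b, against 32, 20 and 19 in Cox6a1, Cox7a2 and Cox8a. A match is a run of letters and not a measured site.

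Among the testis forms, Cox6b2 was well above background on all 4 arrays, at 0.10 in the lung, 0.58 in the esophagus, 1.06 in the stomach and 1.02 in the intestine. Cox7b2 was above background in intestine only, at −5.91, where the floor of that array is −6.92. Cox8c was the 1 member not well above background on any array.

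The other 73 members, the common subunits, varied less across the organs than most genes. The range from the lowest to the highest array was under 2-fold for 63 of the 73 and for 59.9% of the genes detected on every array. Over esophagus, stomach and intestine alone it was under 2-fold for 72 of the 73 and for 83.6% of those genes, the exception being Sdhd. Over the gut arrays the count stayed at 72 under 7 of the 8 alternatives and was 63, with 66.8% of genes, when arrays were centred on their median. Over all 4 arrays it was 39 with median centring and 14 after normexp background correction, when 34.0% and 53.4% of all genes were under 2-fold.

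Few members were 2-fold apart in any pair of organs as processed here, but for the lung pairs this turned with the processing: after normexp 37 differed from esophagus, 54 from stomach and 54 from intestine, and with median centring 30 differed from esophagus. Median centring also gave 13 for esophagus and intestine. Of those measured, 3 of 77 were 2-fold apart between esophagus and stomach, where 9.9% of all genes were, and 4 of 77 between esophagus and intestine, where 20.6% of all genes were. Apart from the 3 muscle forms, these counts hold Sdhd alone. None of 76 was 2-fold apart between stomach and intestine, where 12.4% of all genes were. Lung differed 2-fold from esophagus in 5 of 76 members (25.6% of all genes), from stomach in 6 of 75 (23.9%) and from intestine in 3 of 75 (20.6%).

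In complex I, the 7 core subunits encoded in the nucleus, which carry the flavin and the iron-sulfur clusters, were all lower in stomach than in intestine. The median difference was −0.20 log2, and all 7 were lower under each of the 8 alternatives. Some of these could hardly change that. All 7 were well above background on every array and had 1 probe each, no member spot was flagged, and the deposited table matched the values used. Ndufs1, which carries iron-sulfur clusters, had levels of 4.39 in the lung, 3.66 in the esophagus, 4.05 in the stomach and 4.39 in the intestine. Ndufv1, which holds the flavin that receives electrons from NADH, had 4.82, 4.33, 4.85 and 5.03. Ndufs3 had the smallest range of complex I, 0.25 log2, with levels of 4.98, 4.78, 5.01 and 5.02, and its stomach and intestine values differ by less than the 0.105 that the spread over copies allows. Esophagus was lower than intestine for 6 of the 7, with a median of −0.58, and for 6 or 7 of the 7 under the alternatives. Intestine was thus the highest of the 3 gut arrays for 6 of the 7, and Ndufv2, at 3.94, 3.19, 2.93 and 3.14, was the exception. Of the genes detected on every array, 49.6% were higher in stomach and 37.9% higher in esophagus than in intestine. Under the alternatives these shares ran from 23.6% to 53.8% and from 16.0% to 44.8%, both lowest with median centring.

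The 28 other genes with the prefix Nduf, Ndufa4 included, were taken as the accessory subunits of complex I. Such subunits surround the core and take no direct part in electron transfer. As a group the 28 ran the other way. Stomach was above intestine for 24 of the 28, with a median of 0.32. The count was 17 to 24 under the alternatives, with the lowest median of 0.02 when arrays were centred on their median. Ndufa2 had the largest such difference, 0.66, with levels of 6.75 in the lung, 6.27 in the esophagus, 6.68 in the stomach and 6.02 in the intestine. Ndufa10, Ndufa9, Ndufb5 and Ndufb6 were the 4 accessory genes with the higher value in intestine, at differences of −0.32, −0.13, −0.21 and −0.11. The core median minus the accessory median was −0.53 log2 for stomach minus intestine, which scaling by a constant cannot change. This contrast of core and accessory subunits was not planned and was added after the data were seen. Quantile normalization, normexp and the mean over probes could move it, and moved it by less than the spread over copies.

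Ndufa9, an accessory subunit next to the quinone site of complex I, was the member with the largest lung excess. Its levels were 5.05 in the lung, 3.16 in the esophagus, 3.66 in the stomach and 3.79 in the intestine. Lung was 3.71-fold above esophagus, 2.62-fold above stomach and 2.40-fold above intestine, and as processed here Ndufa9 was the only member at least 2-fold above every other organ in lung, as were 4.45% of all genes. With median centring Atp5b and Atp5pb passed that size too, at margins of 1.02 and 1.09 log2. After normexp background correction lung was not the highest organ for it, at a margin of −0.19 log2. Ndufb5, an accessory membrane-arm subunit, had the next largest range of complex I, with 2.80, 1.59, 1.84 and 2.05. No member was 2-fold below every other organ, which was so for 2.24%, 0.2%, 0.331% and 1.05% of genes in the order lung, esophagus, stomach and intestine, and none was 2-fold above every other organ in stomach (0.372%) or intestine (1.11%).

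Complex II, succinate dehydrogenase, is also an enzyme of the citric acid cycle. All 4 of its genes were lower in stomach than in intestine, with a median of −0.24. All 4 were also lower in esophagus than in intestine, with a median of −0.52. Both counts were 4 of 4 under every alternative, though some alternatives could hardly change them. Of the genes detected on every array, 49.6% were higher in stomach and 37.9% higher in esophagus than in intestine. With median centring these shares were 23.6% and 16.0%. Sdhd, a membrane anchor, had the largest range, with levels of 4.30 in the lung, 3.99 in the esophagus, 4.88 in the stomach and 5.09 in the intestine. Sdhc, the other anchor, had 3.01, 2.97, 3.28 and 3.55. In the catalytic part, the iron-sulfur subunit Sdhb read 4.45, 3.48, 3.63 and 3.82. Its highest array was lung, with intestine next. Sdha, the flavoprotein, had 2.22, 1.45, 1.43 and 1.91.

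Liver markers were also highest on the intestine array, for 6 of 6. The number well above background was 4 in lung, 5 each in esophagus and stomach and 6 in intestine, and their summed signal, in multiples of the 75th percentile, was 27.1, 10.04, 3.36 and 62.5 in that order. Of the 6 erythroid markers, 4 were well above background in lung and 6 on each of the other arrays. Their sums were 10.8, 6.59, 7.96 and 9.28 in the same order, and each of lung and intestine was highest for 3. The part of these cells in the intestine values of complex I core and complex II was not tested.

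Complex III had 6 of 8 genes higher in stomach than in intestine, where 49.6% of the genes detected on every array were. The median difference was 0.27, and 3 to 6 of 8 were higher under the alternatives. With median centring the median was −0.03, where that of all genes was −0.26. Uqcrb, a small subunit, had the largest range, with 3.81 in the lung, 4.64 in the esophagus, 5.08 in the stomach and 4.80 in the intestine. The small subunit Uqcr11 had 5.17, 5.72, 6.19 and 5.61. Both were lowest in lung. Uqcrh, the acidic hinge protein, had the smallest range, with 6.81, 6.68, 6.90 and 6.64. The Rieske iron-sulfur protein Uqcrfs1 and the core protein Uqcrc2 were the 2 genes higher in intestine, at differences of −0.27 and −0.29 log2.

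In complex IV, 8 of the 9 common subunits were higher in stomach than in intestine, where 49.6% of the genes detected on every array were. The median difference was 0.44, and 7 or 8 of 9 were higher under the alternatives. Cox5b was the exception, with levels of 6.07 in the lung, 5.89 in the esophagus, 6.26 in the stomach and 6.47 in the intestine. Cox7c had the largest range of these 9, with 4.01, 4.72, 5.17 and 4.74. Cox5a, which like Cox5b lies on the matrix side of the enzyme, had the smallest, with 6.62, 6.36, 6.48 and 6.15. Cox4i1, a common subunit whose symbol falls outside the pattern, stood at 6.33, 6.37, 6.92 and 6.65, while its counterpart Cox4i2 was not well above background on any array.

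By the brightest probe, all 17 genes of complex V were higher in stomach than in intestine, with a median of 0.37, and 11 to 17 of 17 were under the alternatives. The difference ran from 0.15 to 0.83 log2. Of the genes detected on every array, 49.6% were higher in stomach, but bright probes of any gene mostly were. Among all probes well above background on every array, 322 of 343 with a mean gut level above 6 were higher in stomach. From 5 to 6, 266 of 354 were. The dimmer probe of Atp5a1, the alpha subunit, gave the opposite sign, at 6.08 in stomach and 6.32 in intestine. Atp5b, the catalytic beta subunit, had the largest range, with levels of 8.48 in the lung, 7.74 in the esophagus, 7.85 in the stomach and 7.21 in the intestine. Atp5pb, a subunit of the peripheral stalk, had 6.73, 5.64, 5.90 and 5.72. Lung was the highest array for both. Atp5j, coupling factor 6, had the smallest range of all members, 0.22 log2, with 6.39, 6.33, 6.41 and 6.19. The 3 genes for the identical c subunit of the proton-turned ring, Atp5g1, Atp5g2 and Atp5g3, were higher in stomach than in intestine by 0.16, 0.48 and 0.30.

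**Figure D3:**
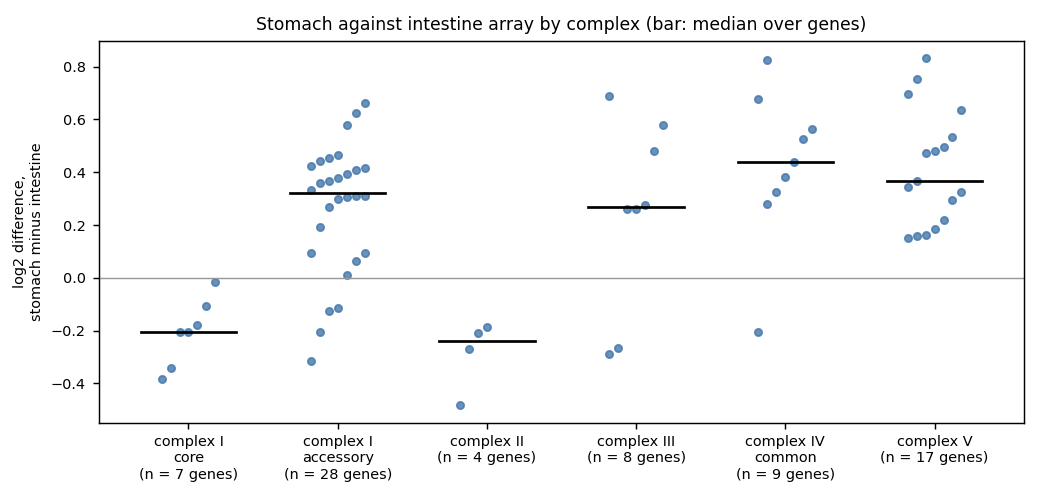
Log2 difference between the stomach and intestine arrays (y axis) for each common subunit, 1 point per gene, with the median of each group as a bar. The 7 core genes of complex I and the 4 of complex II lie below 0, as they did under every alternative. Above it lie 24 of 28 accessory and 17 of 17 complex V genes, counts that were 17 and 11 at the lowest under an alternative. Of the genes detected on every array, 49.6% were higher in stomach.

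The stomach and intestine difference went with brightness. Over the 94 member probes well above background on all 4 arrays, the stomach minus intestine difference had a Pearson r of 0.66 and a Spearman rho of 0.68 with the mean level of the probe on the 3 gut arrays. These probes share 2 arrays and several share a gene, so the values describe the arrays and carry no p. Over all 15719 such probes r was 0.11 and rho 0.11. Among the brightest probes, above a level of 6, the median difference was 0.48 for the 26 of members and 0.52 for all 343. From 5 to 6 it was 0.37 against 0.20, from 4 to 5 it was 0.16 against 0.10, from 3 to 4 it was −0.13 against 0.04, and below 3 it was −0.21 against −0.01. The members thus ran from lower to higher values than all probes as brightness grew, and met them among the brightest.

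At like brightness the core and accessory probes differed in sign. The core probes had levels from 2.28 to 5.15, and 19 accessory probes lay in that range. Of these 19, 13 were higher in stomach, with a median of 0.25, against 0 of the 7 core probes. In the 15 members with several probes above background on all arrays, the brightest probe gave a larger stomach minus intestine value than the dimmest in 11, though both probes see the same gene. The part of brightness in the difference between complexes was not tested.

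**Figure D4:**
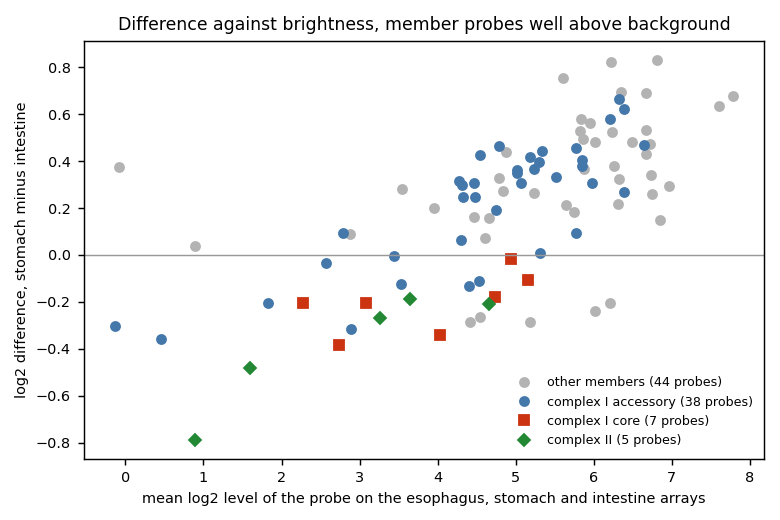
Log2 difference between the stomach and intestine arrays (y axis) against the mean log2 level on the 3 gut arrays (x axis) for 94 member probes, with colours for the groups. The points climb from left to right (r of 0.66), and the 7 red squares of the complex I core lie below 0 at levels where 13 of 19 blue accessory probes lie above it.

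Esophagus was below stomach for 69 of the 73 common subunits, against 66.2% of the genes detected on every array. The count was 62 to 72 under 7 alternatives, with 72 where 79.6% of all genes were lower in esophagus (median centring). After quantile normalization it was 39 of 73, no longer above the 59.7% of all genes. The median over the members measured, the muscle forms included, was −0.28 log2, against −0.16 for all genes. Ndufa8, Ndufc1, Ndufv2 and Sdha were the 4 exceptions, at 0.14, 0.05, 0.26 and 0.02 log2 above stomach.

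The direction of the lung array was not settled by these data. As processed here, lung was above esophagus for 50 of the 73 common subunits, above stomach for 28 and above intestine for 49. Of the genes detected on every array, 69.2%, 61.0% and 62.5% were higher in lung in the same order. Under the other settings the counts ran from 2 to 70 against esophagus, from 1 to 58 against stomach and from 0 to 56 against intestine. The lowest came after normexp correction and the highest with median centring. The shares of all genes were 40.2%, 36.4% and 32.5% after normexp, and 87.5%, 78.7% and 67.1% with median centring. The median over members was 0.21 log2 for lung minus esophagus, where that of all genes was 0.28. For lung minus stomach it was −0.10 against 0.12, and for lung minus intestine 0.20 against 0.14. For lung minus stomach the member median lay below that of all genes under every setting run, by a difference of −0.22 log2 as processed here, −0.14 with the mean over probes, the smallest, and −0.32 among genes detected on every array. The difference was largest after normexp, when the member median was −1.32 and that of all genes −0.32.

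Different probes of 1 gene also disagreed, most in size on lung. For the 15 members with several probes, the lung minus gut difference had opposite signs in the brightest and the dimmest probe of 10, and the brightest gave the larger value in 11. The sign was the same in both probes of 10 of the 15 for esophagus minus stomach and of 11 for stomach minus intestine, so the counts by sign for those pairs rest on the probe chosen too. The difference between the probes had an SD of 0.73 log2 for lung against the gut arrays, 0.27 for esophagus against stomach and 0.20 for stomach against intestine. For Atp5b the brightest probe read 8.48 in the lung, 7.74 in the esophagus, 7.85 in the stomach and 7.21 in the intestine, and the dimmest 2.16, 3.10, 2.80 and 2.71. For Ndufa12, an accessory subunit, the brightest read 6.13, 5.63, 5.89 and 5.80 and the dimmest 1.30, 2.13, 2.77 and 2.81. Lung was thus the highest array by 1 probe and the lowest by the other for both genes. Ndufa8, with 5.03, 4.41, 4.27 and 4.20 by 1 probe and 2.42, 3.33, 3.50 and 3.51 by the other, did the same. Ndufa7 was below the gut mean in lung by both of its probes, at −0.06 and −0.49. The 2 probes of Sdha, at 0.63 and 0.92, both put lung above the gut mean.

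**Figure D5:**
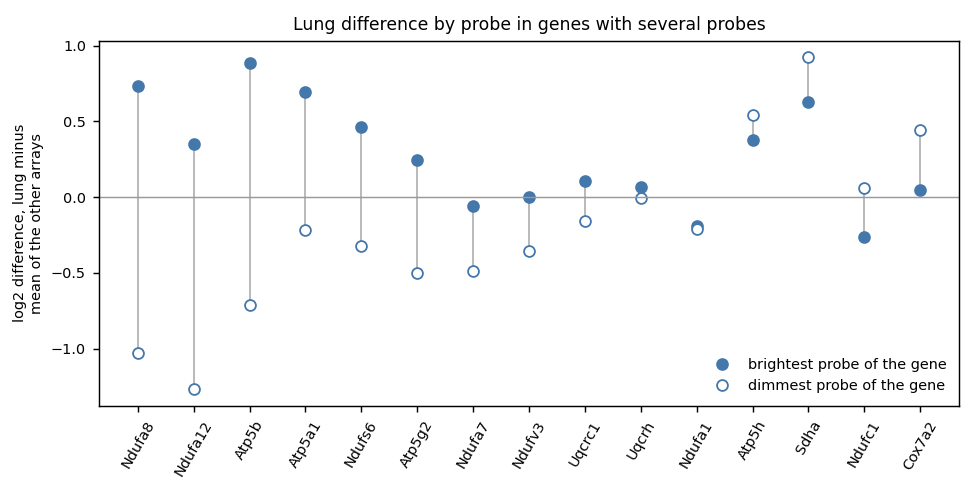
Log2 difference between lung and the mean of the other 3 arrays (y axis) for the 15 members with several probes, the brightest probe filled and the dimmest open. In 10 genes the 2 points lie on opposite sides of 0, as for Ndufa8 at 0.73 and −1.03.

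Other genes of oxidative metabolism were set beside the members from lists. The 13 citric acid cycle enzymes resembled complex II in direction: stomach was above intestine for 5 of 13, with a median of −0.23, and for 0 to 5 under the alternatives. The 41 assembly factors measured, which build the complexes and are not part of them, had stomach above intestine in 17, with a median of −0.05, and in 5 to 17 under the alternatives. Genes with a symbol starting with Rpl or Rps and a digit were taken as the cytosolic ribosomal proteins, so other genes with such symbols are counted too. They were brighter than the members (median level 7.77 in stomach), though the lowest stood at −7.36 in stomach. Stomach was above intestine in 75 of 89 of them, with a median of 0.60, and in 43 to 75 under the alternatives. For all genes the median was 0.04, and stomach was the higher in 52.8%.

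Of genes outside the pattern, Cyc1, the cytochrome c1 of complex III, stood at 4.68 in the lung, 3.49 in the esophagus, 4.17 in the stomach and 4.93 in the intestine, highest in intestine like the complex I core. Cytochrome c itself, Cycs, had 5.74, 4.76, 5.04 and 4.96. Cox7a2l, a factor that joins complexes III and IV, had 4.06, 4.45, 3.77 and 3.58, and was the 1 of these 3 with its highest value in esophagus. Ndufab1, the acyl carrier protein of complex I, had 5.61, 4.82, 5.12 and 5.09. The 13 subunits encoded in mitochondrial DNA had no named probe and were not analysed here.

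Promoter windows were matched for 66 of the 79 members, which gave 71 windows of 300 bases, beside 32851 windows of 27025 genes in the table. The NRF-1 motif was in 23.9% of the member windows and in 4.60% of all windows, and the GABP motif in 23.9% against 8.86%. Both motifs were searched on both strands, and neither contains the other. Atp5h, Atp5k, Cox6a1 and Sdhd held both. The E-box was in 8.45% against 16.3%, and the motif of the muscle regulator MEF2 in 0 of 71 against 3.19%. The member windows also differed in base composition, with a median GC content of 57.7% against 52.7% and a median of 19 against 7 CpG dinucleotides, and the part of that in the motif shares was not tested. Of 5 core windows of complex I, 0 held the NRF-1 motif and 2 the GABP motif, and of 28 accessory windows 7 and 2 did.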

How the data were processed

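Spot values come from Agilent Feature Extraction, version 10.5.1.1 and protocol GE1_105_Dec08, per the file headers, on 1 slide in 1 scan, on a design that refers to build mm8. The deposited processed signal is a spot intensity on a linear scale, background-subtracted within the array and not scaled between arrays, per the file headers. The deposited series table holds log2 values. It matched the values used here at an r of 1.00 on every array, which is the only basis for its scale, centring and direction, with column medians of −3.56, −2.97, −3.17 and −3.47 in the order lung, esophagus, stomach, intestine, and served as an alternative.

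Control and outlier-flagged spots were removed and each probe took the mean of its copies; 69 probes without an unflagged spot on some array were dropped, and the 75th percentile over the 41105 remaining probes was subtracted. No spot was saturated and no member spot was flagged. Accessions without version were matched to the RefSeq table of GRCm38.p6: 24338 probes (59.2%) had 1 symbol and 16767 had none. A gene took its brightest probe by mean level; 64 members had 1 probe, 11 had 2 and 4 had 3. In a pair of organs, a gene entered where it was well above background on at least 1 array, with the dim array at the higher of its own level and its floor. With 1 array per organ nothing was tested.

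The genes named are the muscle forms and their counterparts, members 2-fold above or below every other organ, those of largest and smallest range in each complex, those dim on every array, those whose probes disagree most, and those of largest range in the further lists. Genes named as exceptions to a count, or as its extremes, were added after their values were seen. The members, lists and rules were chosen with earlier results of these data known. The alternatives were median centring, the 75th percentile over bright probes (detected on every array), quantile normalization, normexp (limma 3.58.1, R 4.3.3, offset 50), genes above background on all 4 arrays only, the mean over probes, flagged spots kept, and the deposited table. Normexp used the median in place of the mean spot signal. Keeping flagged spots, using the deposited table and, for the 73 common subunits, keeping only genes above background could change member values little or not at all. Scripts ran in Python 3.11.15 with numpy 2.4.6 and pandas 2.3.3 and were tested on simulated data.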

Additional observations from a re-analysis of the deposited data

How the results depend on the processing

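Of the values recomputed under alternatives, 88 stayed within the spread over copies of a probe (for counts, within 1.5 times), and 36 moved. Beside these, the lung margin of Ndufa9 turned from 1.27 log2 to −0.19 after normexp. Part of the 88 could hardly move, since no member spot was flagged and the deposited table matched the values used. The margin of esophagus over the next organ was 3.49 log2 for Cox6a2, and 2.90 with median centring, 3.79 with the 75th percentile over probes above background on all arrays, 3.32 after quantile normalization and 1.80 after normexp. For Cox7a1 it was 1.59, and 1.39 with median centring and 1.35 after normexp. For Cox8b, limited by the lung floor, it was −0.31, and −0.89, −0.0034, −0.86 and −1.26 under these 4 in the same order. With median centring the median member difference was −0.45 for esophagus minus intestine, −0.48 for esophagus minus stomach, 0.80 for lung minus esophagus, 0.28 for lung minus stomach and 0.0033 for stomach minus intestine, where the medians of all genes were −0.62, −0.36, 0.91, 0.53 and −0.26. With the 75th percentile over bright probes it was −0.091 for lung minus esophagus, −0.0089 for lung minus intestine and −0.31 for lung minus stomach, where all genes were at −0.04, −0.07 and −0.09. After quantile normalization it was −0.13 for lung minus esophagus, −0.084 for lung minus intestine, −0.021 for esophagus minus stomach and 0.069 for stomach minus intestine, where all genes were at 0.16, 0.02, −0.13 and −0.06, so that members minus all genes turned from −0.12 to 0.11 for esophagus minus stomach and from 0.06 to −0.10 for lung minus intestine. After normexp it was −0.96 for lung minus esophagus, −1.18 for lung minus intestine, −1.32 for lung minus stomach, −0.075 for esophagus minus intestine and 0.13 for stomach minus intestine, where all genes were at −0.21, −0.43, −0.32, −0.01 and 0.10. The members 2-fold apart numbered 30 for lung and esophagus and 13 for esophagus and intestine with median centring, 5 for lung and intestine with the percentile over bright probes, and 37, 54, 54 and 1 after normexp for lung against esophagus, stomach and intestine and for stomach against intestine. Among genes above background on all 4 arrays they were 2 for esophagus and intestine and 1 for esophagus and stomach, since Cox6a2 and Cox8b then drop out. The causes of the other moves were not tested. Signal over background limits Cox6a2, Cox8b, Cox7b2 and Cox8c on the arrays where they were dim. The choice of background correction moved the bright common subunits on the dim lung array as well. The single array per organ limits every value. No paired analysis was possible because each organ has 1 sample and the samples share 1 number only.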

Other observations

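The genes named here were chosen for the largest range in their lists. Tfam, which packages and transcribes mitochondrial DNA, had levels of 4.16 in the lung, 2.35 in the esophagus, 2.81 in the stomach and 2.80 in the intestine. The coactivator Ppargc1a read −1.92, −0.25, −2.48 and −0.43, so that esophagus and intestine stood above the other 2 arrays. The GABP beta subunit Gabpb1 had −0.45, −2.40, −1.93 and −1.01, highest in lung, while Gabpb2 was not well above background in lung and had −1.67, −2.13 and −2.94 in the gut arrays. Of the 12 such regulators well above background on all 4 arrays, 7 (58.3%) had a range under 2-fold, against 59.9% of all genes, and of 38 such assembly factors 32 (84.2%) did.

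In the citric acid cycle, Suclg2, a succinyl-CoA ligase subunit, had 1.61 in the lung, −0.62 in the esophagus, 0.01 in the stomach and 1.25 in the intestine. Idh3a, an isocitrate dehydrogenase subunit, had 3.66, 2.04, 1.97 and 2.77, and fumarase, Fh1, had 5.39, 4.11, 4.47 and 4.70. Ogdh, of the 2-oxoglutarate dehydrogenase complex, ran from −1.46 in lung to −0.01 in intestine. Among assembly factors, Sco1, a copper chaperone of complex IV, was lowest in lung at −2.26 and highest in stomach at −0.64, and the complex I factor Ndufaf1 was highest in lung at 1.91 and lowest in esophagus at 0.85. A further list held 8 genes for muscle and common forms of other mitochondrial proteins, of which 0 were 2-fold above every other organ in esophagus. Ckmt1 read −4.14 in lung, not well above background, and −2.43, −1.77 and −1.64 in esophagus, stomach and intestine. Fabp3 had 0.86, 1.83, 1.27 and 0.42, highest in esophagus. The outer membrane channel Vdac3 had 6.22, 4.80, 5.06 and 5.20, and the carrier Slc25a5 had 5.94, 4.77, 5.58 and 5.41. Lung levels rest on the scaling of the dimmest array.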
